A study of Mus musculus with 4 samples.

Results

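The genes described here move cholesterol out of cells or carry it between lipoproteins. They are 10 members, Abca1, Abcg1, Nr1h3, Nr1h2, Mylip, Lpcat3, Pltp, Apoe, Apoc1 and Apod, taken as every non-control probe that carries their names on a mouse expression array. That gave 17 of the array's 56605 probes and 10 of its 37074 gene names. All 10 members had at least 1 probe well above background on 2 or more arrays, as did 22497 gene names in all, and only 1 of the 17 probes failed this filter.

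RNA came from abdominal aortic tissue of male mice aged 12 weeks, taken 4 weeks after an operation in which calcium phosphate (CaPO4) was applied, a procedure used to injure the aortic wall. All 4 arrays were from CaPO4-treated aortas, and an untreated vessel was not analysed here. W2 and W3 carry the genotype label Wild Type, and K4 and K5 the label SR-A1-/-, the loss of the macrophage class A scavenger receptor that Msr1 encodes. The labels used here name neither the allele nor the strain. They also do not say that every array had its own animal, and the spread behind each p-value may then be technical.

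Each value below is a log2 signal relative to the 75th percentile of its array, so 0 is a probe at that percentile, and values are compared between arrays for the same probe and never between probes. Differences are the mean of K4 and K5 minus the mean of W2 and W3, ± the limma standard error (2 arrays per label). That percentile was a signal of 132 on W2 and 133 on K5, against 220 on W3 and 245 on K4, so each signal level held an array of each label. Between 57.6% and 62.6% of probes were well above background. All 9 markers of smooth muscle, the main cell of the aortic media, were well above background on every array. Msr1 went against the labels: its tested probe read -1.26 and -2.09 on K4 and K5, where it was well above background, and -5.30 on W2, where it was not, with -2.10 on W3. Such a probe is a check only if it lies in the deleted part of Msr1, and directions are therefore given by label.

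Cells take up cholesterol with lipoproteins and cannot break down its ring system, so the excess has to be exported. When sterols accumulate, oxysterols bind the liver X receptors LXRα (Nr1h3) and LXRβ (Nr1h2), which act with retinoid X receptors on direct repeats in target genes. Among the targets are the exporters Abca1 and Abcg1, the lipoprotein genes Apoe, Apoc1 and Pltp, the phospholipid enzyme Lpcat3 and Mylip, whose product limits lipoprotein uptake. This pathway is best known in the artery wall from macrophages that load cholesterol and become foam cells.

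Apod, Pltp, Abca1, Mylip and Apoe were each higher on both arrays labelled SR-A1-/- than on both labelled wild type, with differences of 1.86 ± 0.27, 1.33 ± 0.64, 0.96 ± 0.28, 0.59 ± 0.30 and 0.44 ± 0.30. The groups overlapped for Abcg1, Nr1h3, Nr1h2, Lpcat3 and Apoc1, and Apoc1 varied most among arrays. Thus 5 of 10 members were higher on both arrays, against 16.1% of all tested genes, and 0 of 10 were lower on both, against 13.7%, which makes 5 of 10 without overlap against 29.8% of all genes. Of the 16 tested probes 8 were higher on both and 2 lower on both, against 16.4% and 13.8% of all tested probes. No member passed an adjusted p of 0.05 in limma, nor did any of the 22497 genes (0%). Apod and Abca1 had an unadjusted p under 0.05, and both were higher. That is 2 of 10 members against 6.29% of all genes (3.84% higher and 2.45% lower). The members' median difference was 0.37, and that of all tested genes was -0.0057. The members were chosen with earlier results of these data known, so these contrasts are descriptive and not a test. With an array left out the criterion rested on 1 array of that label. Some members then counted as lower without W2 or without K4, and none did without W3 or without K5. The matching share of all genes is not given here, so these runs are not read further. Fewer cells of a type and less RNA per cell cannot be told apart in RNA of whole tissue.

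**Figure D1:**
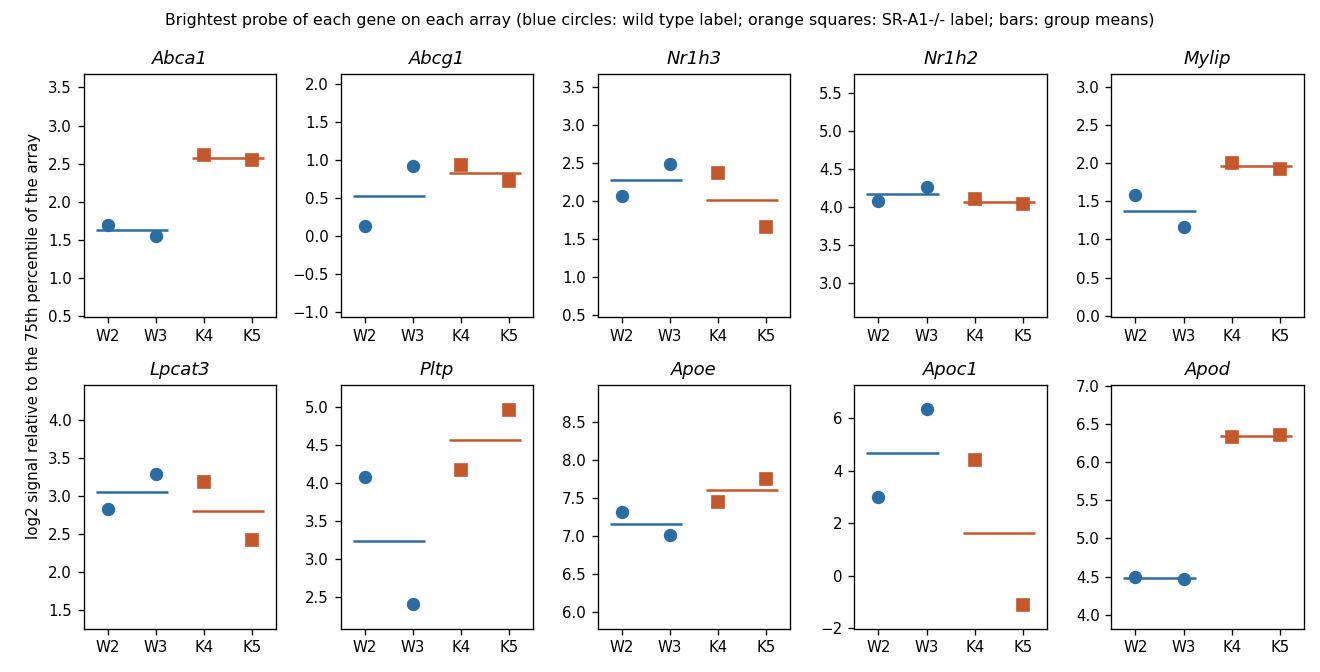
Log2 signal relative to the array's 75th percentile (vertical axis, a separate range for each gene) of the brightest probe of the 10 members on arrays W2, W3, K4 and K5 (horizontal axis), with bars at the means of the 2 arrays of a label. Apod and Abca1 split into tight pairs by label, Nr1h2 is nearly level, and Apoc1 runs from 6.36 on W3 to -1.11 on K5.

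Abca1 encodes the membrane pump that loads phospholipid and cholesterol onto lipid-poor apolipoprotein A-I, the step that starts a high density lipoprotein particle. Its promoter is shown because it holds the letters of an LXR element, here in 60 bases read from the RefSeq promoter table (GRCm38.p6, chr4:53159925-53159984, minus strand), with the match in capitals.
Abca1 promoter: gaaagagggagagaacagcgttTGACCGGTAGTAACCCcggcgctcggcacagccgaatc
The capitals lie at -67 to -52 from the gene's start and match, on the opposite strand, the LXR repeat of AGGTCA, 4 bases of any kind and AGGTCA again, with 3 mismatches in its 12 fixed bases. The table gave 11 windows for 8 of the 10 members (not for Abcg1 and Apoc1), each from 250 bases before a start to 50 after, and this was the only window with a match. A match was present in 21.9% of all 32851 promoter windows, on either strand at that tolerance, and 3.02% at 2 mismatches. A match is a match of letters, and binding was not measured here.

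Its brighter probe starts at base 9917 of NM_013454 (mm9, chr4:53043944-53044003). It read 1.69 on W2, 1.55 on W3, 2.61 on K4 and 2.55 on K5. The arrays of a label lay within 0.14 of each other, and the gap between the labels was 0.96 ± 0.28, a 1.94-fold difference (95% interval 0.25 to 1.67, limma adjusted p = 0.618). A second probe, from base 6709, crosses an exon junction within the transcript (chr4:53048405-53049145) and is printed because it reads a separate part of the RNA.
Abca1 probe A_66_P112921: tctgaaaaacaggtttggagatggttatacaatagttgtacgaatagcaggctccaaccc
This probe read -1.99 and -2.87 on W2 and W3, and -1.42 and -1.05 on K4 and K5, a difference of 1.19 ± 0.40. Both Abca1 probes therefore placed K4 and K5 above W2 and W3. By unadjusted p Abca1 stood at rank 656 of the 22497 genes, and 91.2% of genes had a smaller absolute difference.

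Abcg1 encodes a transporter that passes cholesterol to mature high density lipoprotein, downstream of Abca1. It read 0.13 on W2, 0.92 on W3, 0.94 on K4 and 0.72 on K5 at a single probe of NM_009593 (chr17:31252580-31252639). W2 was the low array and the other 3 lay within the range of 0.72 to 0.94. The difference was 0.30 ± 0.38 with a 95% interval from -0.66 to 1.27, with -0.090 without W2 and 0.70 without W3. The data thus gave no settled direction for Abcg1, and whether it differed from Abca1 was not tested.

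At their brightest probes both LXR genes differed between labels by less than the standard error. Nr1h2 (LXRβ, expressed in most cell types) read 4.09, 4.26, 4.10 and 4.05 on W2, W3, K4 and K5, the narrowest range of any member. Its difference was -0.10 ± 0.28 (95% interval -0.82 to 0.61). A weaker Nr1h2 probe, which crosses a junction (chr7:51807934-51808069), read -1.33 and -1.49 against -1.72 and -1.65, a difference of -0.28 ± 0.28. The last Nr1h2 probe, for the transcript ENSMUST00000142298, was well above background on 0 arrays and was not tested. Nr1h3 (LXRα, the form of macrophages, liver and fat) read 2.06, 2.48, 2.37 and 1.66. Its difference of -0.26 ± 0.38 (95% interval -1.23 to 0.71) rested on W3 and K5, since it was -0.046 without W3 and 0.096 without K5. The other Nr1h3 probe had the opposite sign, at 0.11 ± 0.37. An interval of this width does not show that the receptors were equal.

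Mylip encodes IDOL, a ubiquitin ligase through which LXR limits lipoprotein uptake. It read 1.58 on W2, 1.16 on W3, 2.0 on K4 and 1.92 on K5 (NM_153789, chr13:45506979-45507038). K4 and K5 were close together and above both other arrays, with a difference of 0.59 ± 0.30, or 1.51-fold (95% interval -0.19 to 1.37, limma adjusted p = 0.939). Without W3 it was 0.38. Lipoprotein receptors were listed beside it, and 0 of 4 passed an adjusted p of 0.05. Lrp8 and Lrp1 differed by -0.25 ± 0.35 and 0.27 ± 0.38, with overlapping groups.

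Lpcat3 places polyunsaturated fatty acids into phospholipids and is an LXR target in liver and macrophages. Its brightest probe read 2.83, 3.29, 3.19 and 2.43 on W2, W3, K4 and K5, with a difference of -0.25 ± 0.39 that was -0.017 without W3 and 0.13 without K5. The second probe (chr6:124653374-124653542) gave -0.29 ± 0.28, with both arrays labelled SR-A1-/- below the others. Of 6 other acyltransferases of this kind, 0 passed an adjusted p of 0.05 and the median difference was -0.011, with a range over alternatives from -0.12 to 0.14. Lpcat1, which makes lung surfactant lipid, had the smallest p of them, at 0.45 ± 0.32.

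Pltp encodes the phospholipid transfer protein that remodels lipoproteins in plasma. It read 4.07 on W2, 2.41 on W3, 4.18 on K4 and 4.96 on K5 (NM_011125, chr2:164665022-164665081). W3 stood low, and K4 was above W2 by only 0.10. The difference was 1.33 ± 0.64 (95% interval -0.33 to 2.99, limma adjusted p = 0.908), 0.50 without W3 and 2.16 without W2. The summed signal of 7 endothelial markers, in multiples of the array's 75th percentile, was also lowest on W3, at 44.2 and 23.1 on W2 and W3 and 54.2 and 52.0 on K4 and K5. Vwf, the von Willebrand factor gene, carried most of that dip, at 4.67 and 2.90 against 5.10 and 5.03, whereas Cdh5, the endothelial cadherin gene, was highest on W3. All 7 were well above background on every array. On both arrays labelled SR-A1-/- 4 of 7 were higher and 1 was lower, against 16.1% and 13.7% of all genes. Their part in the Pltp values was not tested.

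Apoe encodes apolipoprotein E, the ligand for clearance of lipoprotein remnants and an acceptor of exported cholesterol, made by macrophages, smooth muscle and fat among other cells. The probe that stood for the gene covers the end of the coding sequence of NM_009696 (base 1074, mm9, chr7:20281732-20281791).
Apoe probe A_51_P171999: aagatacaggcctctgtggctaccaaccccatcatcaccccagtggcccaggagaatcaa
It read 7.31 on W2, 7.02 on W3, 7.45 on K4 and 7.75 on K5. The groups did not overlap, but K4 exceeded W2 by only 0.14, less than the spread of 0.29 between W2 and W3. The difference was 0.44 ± 0.30, or 1.35-fold (95% interval -0.34 to 1.22, limma adjusted p = 1.0), and 0.29 without W3 or without K5. A probe for the transcript NM_001305843 read 5.34 and 4.82 against 5.55 and 6.04, a difference of 0.72 ± 0.35 in the same direction.

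Apoc1 encodes a small apolipoprotein that restrains lipoprotein uptake and lipase activity, and its gene is the neighbour of Apoe on chromosome 7 in the RefSeq order (GRCm38.p6). Unlike Apoe, it read 2.99 on W2, 6.36 on W3, 4.40 on K4 and -1.11 on K5 (NM_007469, chr7:20274856-20274915). W3 was the high array and K5 the low one, with a range of 7.47, and each group spread more than the labels differed. The difference was -3.03 ± 2.07 (95% interval -8.37 to 2.32, limma adjusted p = 1.0), -0.27 without K5 and -5.78 without K4. Of the other apolipoprotein genes of that cluster, Apoc2 read between -3.49 and -2.16 and was well above background on every array. Apoc4 did not pass the filter.

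Summed fat cell markers, like Apoc1, were highest on W3 and lowest on K5. The brown adipocyte list (6 of 6 tested) had a mean log2 signal of -1.29 and 3.49 on W2 and W3, and 1.95 and -2.23 on K4 and K5, the same order of arrays as Apoc1. Its summed signal was 22.6 and 344 on W2 and W3, and 110 and 4.76 on K4 and K5. The heat-producing uncoupling protein gene Ucp1 was not well above background on W2 and K5. White adipocyte markers (8 of 8 tested) had a summed signal of 393 and 667 on W2 and W3, and 619 and 29.3 on K4 and K5, with 7 of 8 detected on K5. Their mean log2 signal was 3.66 and 4.37 on W2 and W3, and 4.52 and -1.23 on K4 and K5, which is not the Apoc1 order since K4 was highest. Single markers departed from this: Lep, the leptin gene, was highest on K5, and the brown fat regulator Ppargc1a was lowest on W2. Within the arrays of low signal level, K5 minus W2, Apoc1 differed by -4.09, and within those of high level, K4 minus W3, by -1.96. Whether fat content set these Apoc1 values was not tested.

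**Figure D2:**
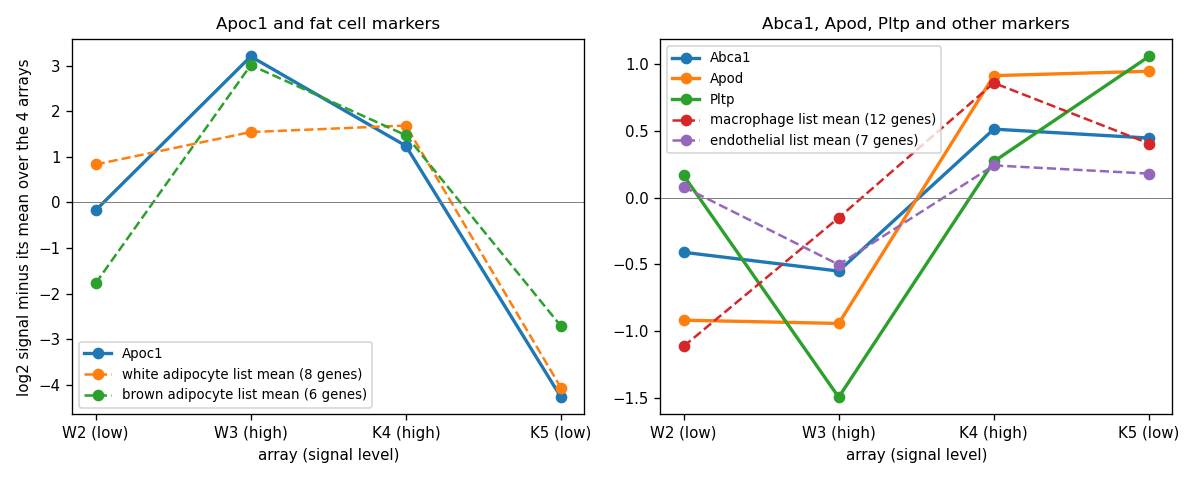
Log2 signal minus its own mean over the 4 arrays (vertical axis) for Apoc1 with the means of the fat cell lists (left) and for Abca1, Apod and Pltp with the means of the macrophage and endothelial lists (right), by array (horizontal axis, with the signal level). Lines only join the points of an item, and Apoc1 follows the fat lists down on K5 while Abca1 and Apod step up between W3 and K4.

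Apod encodes apolipoprotein D, a lipocalin that binds arachidonic acid and small steroids, related to transport proteins other than the classical apolipoproteins and made by fibroblasts, glia and other cells. One Apod probe crosses the junction of exons that lie far apart in the genome (NM_007470, base 565, mm9, chr16:31300545-31303530), and it is printed because it reads spliced RNA.
Apod probe A_51_P366811: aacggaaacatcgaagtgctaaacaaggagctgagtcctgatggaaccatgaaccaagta
That probe read 1.94 on W2, 1.70 on W3, 3.71 on K4 and 3.94 on K5. The brighter probe lies 3' of it (base 1086, chr16:31297206-31297265), contains the letters AATAAA and was spotted 10 times on each array. It read 4.50, 4.47, 6.33 and 6.36 on W2, W3, K4 and K5. Arrays of a label were within 0.033 of each other. The SD over the 10 spots was 0.065 to 0.087, which is technical error only. That SD kept 3 outlier spots on W2, which the value of 4.50 leaves out.

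The difference was 1.86 ± 0.27 at the repeated probe, or 3.62-fold (95% interval 1.16 to 2.56), and 2.0 ± 0.29 at the junction probe. The limma adjusted p was 0.23, which did not pass, and over all alternatives it ranged from 0.0594 to 0.909. Apod stood at rank 103 of 22497 by p. The difference was 1.86 within the arrays of low signal level and 1.85 within those of high level. Fibroblast markers (8 of 8 tested) had a median difference of 0.086. On both arrays labelled SR-A1-/- 1 of 8 was higher, 12.5% against 16.1% of all genes, and 0 were lower, against 13.7%. The summed signal of these markers was 2003 and 1210 on W2 and W3, and 1289 and 2045 on K4 and K5. This groups the arrays by signal level and not by label. Schwann cell and nerve markers (7 of 7 tested) had a median of 0.15 and a summed signal of 40.9 and 60.9 against 32.4 and 30.5. Of these 1 was higher on both arrays labelled SR-A1-/-, 14.3% against 16.1% of all genes, and 2 were lower, 28.6% against 13.7%.

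**Figure D3:**
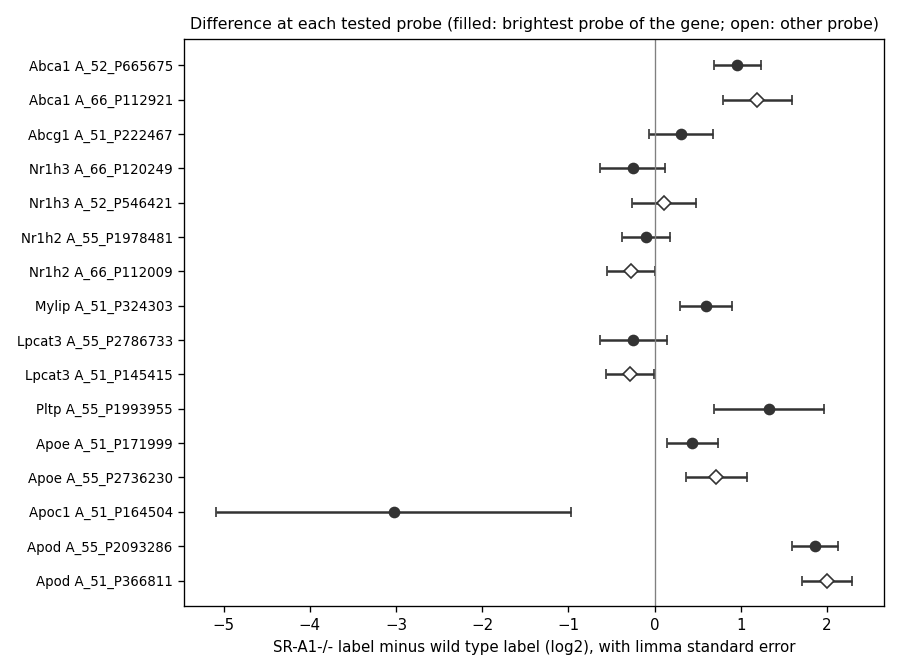
Difference between labels in log2 units (horizontal axis, mean of K4 and K5 minus mean of W2 and W3, with limma standard error bars) at the 16 tested probes of the members (vertical axis), filled for the brightest probe of a gene and open for another. The 2 probes each of Abca1, Apoe and Apod lie on the same side of 0, and those of Nr1h3 on opposite sides.

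Of 12 tested macrophage markers 7 were higher on both arrays labelled SR-A1-/- and 0 lower, against 16.1% and 13.7% of all genes, with a median difference of 1.31. The other 5 overlapped, and Itgam, an integrin chain of myeloid cells, was lower in mean, at -0.17. The summed signal of all 12 was 174 and 405 on W2 and W3, and 311 and 318 on K4 and K5. It was thus highest on W3, labelled wild type, as were Cd68, Lyz2 and Lgals3. The mean log2 signal of the same 12 was 1.51 and 2.47 on W2 and W3, and 3.48 and 3.02 on K4 and K5. By the mean both arrays labelled SR-A1-/- were higher, so sum and mean gave different orders. All 12 were well above background on every array. C1qa, a chain of the complement starter C1q, differed by 1.74 ± 0.28. Cd163, the receptor for haemoglobin complexes, differed by 2.83 ± 0.45 and the IgG receptor gene Fcgr1 by 1.87 ± 0.47. None of these passed, with limma adjusted p = 0.272 for C1qa and Cd163 and 0.525 for Fcgr1. The part of macrophage content in the Abca1, Apoe and Apod values was not tested. For smooth muscle 5 of 9 markers were lower on both arrays labelled SR-A1-/- (median -0.50), and for skeletal muscle 5 of 7 (median -2.10), against 13.7% of all genes. Of 4 tested erythroid markers 1 was higher on both, 25% against 16.1% of all genes. It was the globin gene Hbb-b1, at 1.23 ± 0.29, and the list median was 0.72.

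Of 16 other LXR target genes 15 were tested, and 0 passed an adjusted p of 0.05 or an unadjusted p under 0.05. On both arrays labelled SR-A1-/- 0 were higher, against 16.1% of all genes, and 1 was lower, 6.67% against 13.7%. The median difference was -0.25. The sign of that median was not settled: it was 0.23 without W3, 0.072 without K5 and -0.59 without W2. The lower gene was Mertk, a receptor for dying cells, at -0.50 ± 0.33. Ccr7, a chemokine receptor of dendritic cells, and Slc2a4, the insulin-responsive glucose transporter, had the other smallest p-values, at 0.75 ± 0.46 and -0.54 ± 0.59. Fasn, Scd1 and Srebf1, named here after their values were seen, were high on W3 and K4 and low on W2 and K5. Not every gene of the list did so. Mlxipl went the other way, at 3.25 and 2.67 on W2 and W3, and 2.58 and 3.26 on K4 and K5. W3 and K4 are also the arrays of high signal level, and W2 and K5 those of low level. Fasn, fatty acid synthase, read 4.89 and 8.64 on W2 and W3, and 8.17 and 3.65 on K4 and K5. Scd1, the stearoyl-CoA desaturase, read 1.39 and 5.44 against 5.63 and 0.69, and Srebf1, the LXR-driven regulator of these enzymes, 3.83 and 4.68 against 4.44 and 3.09. These genes are abundant in fat, whose summed markers were also lowest on K5. The parts of fat and of signal level in the values of these genes were not tested.

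No partner or cofactor of LXR passed the test. All 13 were tested, and 0 passed an adjusted or unadjusted p of 0.05. On both arrays labelled SR-A1-/- 2 were lower, 15.4% against 13.7% of all genes, and 0 were higher, against 16.1%. The median was -0.14. The lower genes were Rxra, a partner receptor of LXR, which read 5.38 and 5.27 against 4.95 and 5.03, and its relative Rxrg at -0.88 ± 0.37. Ppara, a fatty acid receptor, had the next smallest p, at -1.20 ± 1.36.

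Genes of cellular cholesterol handling had a median of 0.061, which was 0.21 without W3, -0.0050 without W2 and -0.048 with the mean of the tested probes. Among them 5 of 19 were higher on both arrays labelled SR-A1-/-, 26.3% against 16.1% of all genes, and 1 was lower, 5.26% against 13.7%. Cyp27a1, the mitochondrial enzyme that makes the LXR ligand 27-hydroxycholesterol, read -1.52 and -2.30 on W2 and W3 and -0.40 and -0.79 on K4 and K5. Its difference was 1.31 ± 0.39, and it was the only gene of this list with an unadjusted p under 0.05 (limma adjusted p = 0.629). Ch25h, which makes 25-hydroxycholesterol, read -3.00 and -1.89 against -1.59 and -1.30, a difference of 1.0 ± 0.45. Nceh1, which hydrolyses stored cholesteryl esters in macrophages, differed by 0.66 ± 0.36. Both oxysterol enzymes were thus above the other label on each array, and neither passed the adjusted threshold.

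Among 15 other apolipoprotein genes 8 were tested and 7 did not pass the filter on background, among them the plasma apolipoproteins Apoa1 and Apob of liver and gut. Of the 8 tested, 0 passed an adjusted or unadjusted p of 0.05. On both arrays labelled SR-A1-/- 1 was higher, 12.5% against 16.1% of all genes, and 0 were lower, against 13.7%. The median was -0.040. That median was -0.44 without W2, 0.21 without W3, 0.030 without K4 and 0.27 with the mean of the tested probes. Apoa2 was the higher gene, at 0.84 ± 0.38, and Apoo and Apool, which serve the mitochondrial inner membrane, differed by -0.99 ± 0.66 and -0.30 ± 0.51.

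**Figure D4:**
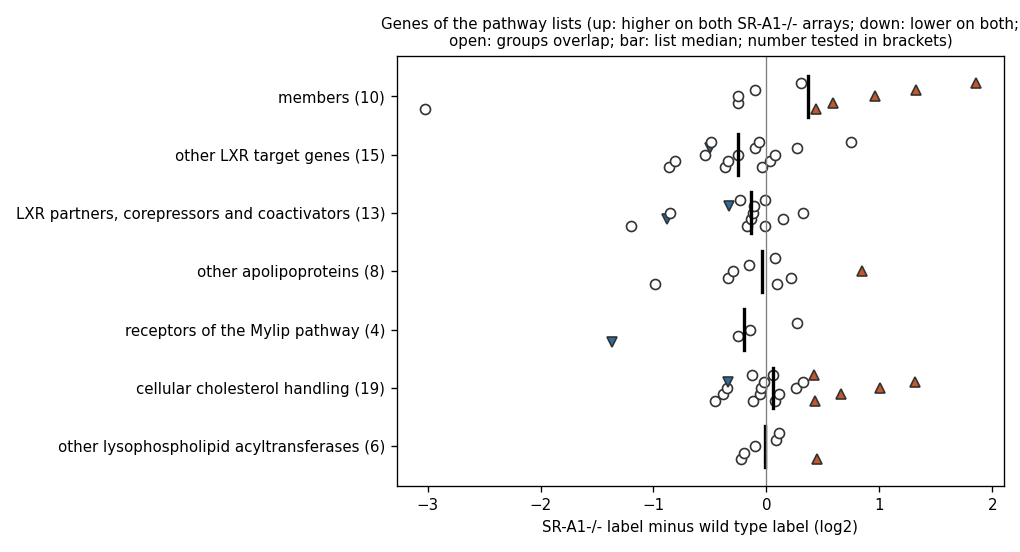
Differences between labels in log2 units (horizontal axis, mean of K4 and K5 minus mean of W2 and W3) for each tested gene of the 10 members and of 6 related lists (rows), with upward triangles for genes higher on both arrays labelled SR-A1-/-, downward for lower on both, open circles where groups overlap and a bar at each list's median. The medians run from -0.25 for other LXR targets to 0.37 for the members.

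The genes whose values followed Abca1, Apoe and Apod most closely were taken from the 4674 tested genes that have an established name and vary by at least 1 over the arrays. Likeness was the root mean square difference of values centred on their own mean over 4 arrays, too few for a correlation. Nxpe4, Duxbl2 and C1s2 were closest to Abca1, at 0.028, 0.046 and 0.048. Ciita, C1qa and Ang2 were closest to Apod, at 0.091, 0.11 and 0.11, and Lep, Cep250 and Col6a1 to Apoe, each at 0.11.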

How the data were processed

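The deposited Cy3 intensity values are processed signals, from which the scanner software (Feature Extraction 12.0.3.1, per the file headers) had removed background and spatial trend; arrays were not yet normalised to each other. The submitters' processing notes name version 10.7 and limma. The value table the authors deposited is on a log2 scale with almost equal columns (medians 4.31 to 4.32). The mean and background signals the authors deposited are raw intensity values.

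Outlier spots (74 to 102 per array) were left out, 0 were saturated, repeated spots were averaged and the 75th percentile over probes was subtracted from log2 values. Probes well above background on at least 2 arrays were kept (35102), and the brightest stood for each gene. The fit used limma 3.58.1 (lmFit, eBayes; R 4.3.3, two-sided, Benjamini-Hochberg over 22497 genes), tested on simulated data. Figures used matplotlib 3.10.9. Probe sequences and mm9 positions are from the array files, promoters and gene order from RefSeq tables.

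The members and lists were chosen with earlier results of these data known. Text names all members, up to 3 genes of smallest p per list and those closest to Abca1, Apoe and Apod. Other listed genes, among them Cdh5, Itgam, Cd68, Lyz2, Lgals3, Ucp1, Apoc2 and Fasn, fall outside that rule and were picked with their values known. Alternatives were other normalisations, background, filters, probe rules, tests, deposited values, a signal level block and each array left out. 1 listed gene is not reported here. The number of arrays limits the precision.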

Additional observations from a re-analysis of the deposited data

How the results depend on the processing

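No paired analysis was possible because the labels' replicate numbers differ between the groups, so nothing in them pairs arrays. A block for signal level (W2 with K5, W3 with K4), which the data and not the labels define, gave 0 genes past an adjusted p of 0.05, and Apoc1 then had -3.03 ± 0.61. Genes past an adjusted p of 0.05 numbered 0 as reported, 8 with quantile normalisation, cyclic loess, no filter on dim probes or the deposited values, 7 with median scaling, 22 with normexp background correction, 5 with an intensity trend, 2 with array weights, and 0 to 371 with an array left out, where the lone array is assumed to vary like the other group. The cause was not tested. In each of these alternatives 0 members passed. Members lower on both arrays numbered 1 with the mean of the tested probes, and 0 to 4 with an array left out. Abca1, Apoe, Apod, Mylip, Pltp, Nr1h2 and Apoc1 kept their direction in every alternative, with Apod at 1.81 to 2.0 and Abca1 at 0.85 to 1.19. Leaving out an array gave -0.090 to 0.70 for Abcg1, -0.61 to 0.096 for Nr1h3 and -0.63 to 0.13 for Lpcat3, and the dimmer Nr1h3 probe gave 0.11.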

Other observations

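Over the 10 members the closest arrays were K4 and K5, with a median absolute difference of 0.26, followed by W2 and K4 at 0.39, W2 and W3 at 0.42 and W2 and K5 at 0.52. Over all tested genes the closest were W2 and K5 at 0.28 and W3 and K4 at 0.30, ahead of K4 and K5 at 0.39. The order of the array pairs was thus not the same for the members as for all genes, and the difference was not tested.

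Genes closest to Apoc1 and Pltp by the same measure were looked up after their values had been seen. Gpd1, a glycerol phosphate dehydrogenase, was closest to Apoc1 at a root mean square difference of 0.42, followed by Als2cr12 at 0.44 and the carboxylesterase gene Ces1d at 0.46. Pik3ip1, Duoxa1 and Cml3 were closest to Pltp, at 0.082, 0.092 and 0.11.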
